A study of Mus with 2 samples.

Results

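Growth factors of the insulin-like, platelet-derived and epidermal families, with receptors and a binding protein, were examined in bone marrow-derived macrophages (BMDMs) treated with an agonist of the bile acid receptor FXR. The 10 genes were Igf1, Igf1r, Igf2r, Igfbp4, Pdgfa, Pdgfb, Pdgfra, Pdgfrb, Hbegf and Areg. They were listed by name, with earlier results of these data known, and were found through the RefSeq accession that the array gives for each probe. The 10 genes had 15 probes on 33 spots, among 20060 genes matched by name in the same way. BMDMs were grown for 7 d in 10 ng/mL M-CSF from marrow of femurs and tibias of 10-week-old male C57BL6/J mice. Both groups then received 10 ng/mL of IL-4, which sets M2 conditions, for 24 h. One group was given 10 µM GW4064, a synthetic FXR agonist, and the control was given its solvent DMSO. Each group had 1 array of total RNA, a 1-colour Agilent mouse array that reads Cy3-labelled RNA by spot brightness. How many mice gave the cells on each array, and whether marrow was pooled, is not given in the sources used here.

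IGF1 activates the receptor tyrosine kinase IGF1R, whereas IGF2R, the cation-independent mannose 6-phosphate receptor, carries IGF2 and lysosomal enzymes to lysosomes. IGFBP4 binds IGFs and holds them away from IGF1R until the protease PAPP-A cleaves it. PDGF-A and PDGF-B chains form dimers that act on PDGFRA and PDGFRB, which are mainly receptors of fibroblasts, pericytes and other stromal cells. HB-EGF and amphiregulin, the product of Areg, are made as membrane-bound precursors, are released by ADAM proteases and activate EGFR. Macrophages of healing tissue are known as a source of IGF1, PDGF and EGF-type ligands.

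The values given as signals are brightness units of single probes after the scanner software had subtracted background. They depend on how well each probe binds, so they were compared between arrays and not between genes. Each difference is the log2 signal of the GW4064 array minus that of the DMSO array, after the 75th percentile of each array (1209 for DMSO and 1265 for GW4064) had been subtracted on the log2 scale. The fold given is that of the scaled values, so it is slightly smaller than the ratio of raw signals for higher values and slightly larger for lower values. Since each condition had 1 array, no replicate error, test or p-value can be given. The spread between copies of a probe and the error that the software gives for a spot describe the reading of an array and not the spread between cultures. The share of probes well above background was 57.4% with DMSO and 58.5% with GW4064, and 13532 of the 20060 genes were measured on at least 1 array. Among them 2.04% were 2-fold or more higher with GW4064 and 2.71% were 2-fold or more lower, with a median difference of 0.01 over all measured genes. Of all spots, 16.5% had 2 or more other spots within 300 µm that were 8-fold or more apart between the arrays. A member at such a place is named below as lying in an area of clustered large differences. Dim spots were counted too and no share for randomly placed spots was computed, so clustering itself was not tested. In these bulk samples fewer cells of a type and less RNA per cell cannot be told apart.

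Of the 10 genes, 9 could be measured. Of these 9 genes, 5 had a higher value with GW4064 and 4 a lower one, where 51.6% of all measured genes were higher. The median difference of the 9 genes was 0.07, which is the value of Pdgfra. The copies of Pdgfra paired by position gave a mean of -0.03. Its sign, and with it this split and median, depended on 1 GW4064 copy whose DMSO partner was left out. That copy lay in an area of clustered large differences. None of the 9 was 2-fold or more apart. Hbegf was the 1 gene that was 1.5-fold or more higher, beside 4.39% of all measured genes, and Pdgfrb the 1 gene that was 1.5-fold or more lower, beside 5.56%. Each of these calls ended under 1 of the alternatives tried. With centring on spike-in RNAs Hbegf stood at 0.57, short of 1.5-fold. With normexp, another background correction, Pdgfrb stood at -0.36, also short of 1.5-fold. Normexp adds 50 to each intensity, which draws the differences of dim probes such as that of Pdgfrb toward 0. Areg was too dim on both arrays to be measured.

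**Figure D1:**
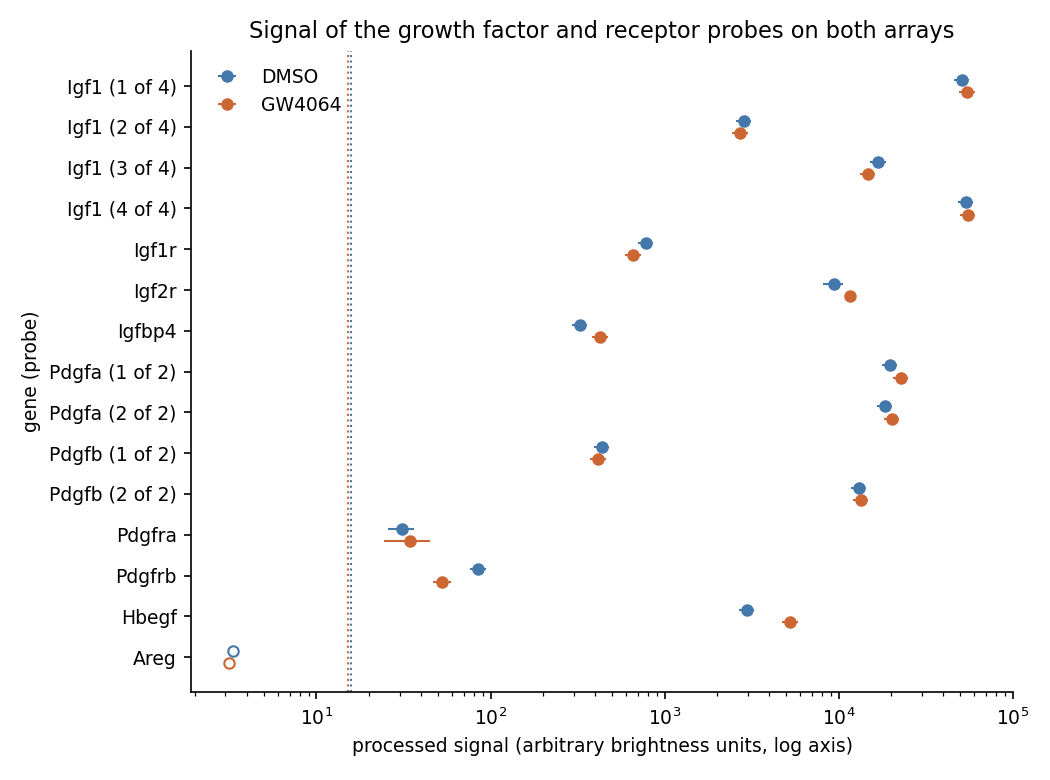
Processed signal (log axis, brightness units) of each of the 15 probes on the DMSO and GW4064 arrays. Error bars are the scanner software's error for probes with 1 spot and the SD over copies for the probes of Igf2r and Pdgfra, dotted lines are the lowest signal that was well above background on each array, and open circles are signals not well above background, which were those of Areg. The points of Hbegf and Pdgfrb lie farthest apart, with Hbegf at 2985 and 5289 and Pdgfrb at 85.2 and 52.8.

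Igf1, the ligand that M2 macrophages are best known to secrete among these genes, had 4 probes against 1 accession, NM_010512. The first gave signals of 51390 with DMSO and 54929 with GW4064, a log2 difference of 0.03. The second gave 2843 and 2729, a difference of -0.12. The third gave 16930 and 14746, a difference of -0.26, and the last gave 54149 and 55569, a difference of -0.03. The third and last probes lay in areas of clustered large differences. The mean over the 4 probes was -0.10 ± 0.13 (SD over probes), so Igf1 mRNA expression had no difference larger than the spread between its own probes.

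Pdgfa, the gene of the PDGF-A chain, had 2 probes, both of NM_008808. One gave signals of 19673 with DMSO and 22691 with GW4064, a difference of 0.14, and the other gave 18375 and 20210, a difference of 0.07. Shares among probes of like signal, here and below, count probes well above background on both arrays with a signal within 2-fold. Among these, 23.2% and 38.6% lay at least as far above 0, so both values were common ones for the array.

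Pdgfb, the gene of the PDGF-B chain, had 2 probes of NM_011057. The dimmer probe gave signals of 438 with DMSO and 417 with GW4064, a difference of -0.14. The brighter one gave 13031 and 13368, a difference of -0.03. The means over the probes were 0.11 for Pdgfa and -0.08 for Pdgfb. The software's error on the difference of a single spot was 0.20 for each of these probes. It was also 0.20 for the probes of Igf1, Igf1r and Hbegf, so it is not particular to these spots. The median SD between copies of probes of like signal was 0.07 for both Pdgfa probes and the brighter Pdgfb probe. For the dimmer Pdgfb probe it was 0.08.

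Hbegf (NM_010415) encodes HB-EGF, the heparin-binding member of the EGF family. Its 1 probe gave a signal of 2985 (software error 299) with DMSO and 5289 (software error 529) with GW4064, so the GW4064 array was the higher one. After scaling, the difference was 0.76 with a software error of 0.20, 1.69-fold higher. It was the largest of the members' differences in the upward direction. Among the 4084 probes of like signal, 0.710% were at least as far above 0. Over all probes measured on at least 1 array, a wider set, 3.27% were. For comparison, 67 probes of like signal that were printed 10 times had a median SD between their copies of 0.07. No other spot within 300 µm was 8-fold or more apart, and the 116 spots around the probe had a median difference of -0.14, where the median over all spots was -0.08. The median pixel of the spot went the same way, at 2421 with DMSO and 4220 with GW4064.

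Areg (NM_009704), which encodes amphiregulin, had 1 probe with signals of 3.33 with DMSO and 3.13 with GW4064. Neither was well above background, where the lowest signals so marked were 15.7 and 15.1. The median pixel of its spot was 30 against a local background of 23 with DMSO and 31 against 18 with GW4064. No fold is given for Areg, and a difference was not detectable at this brightness.

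**Figure D2:**
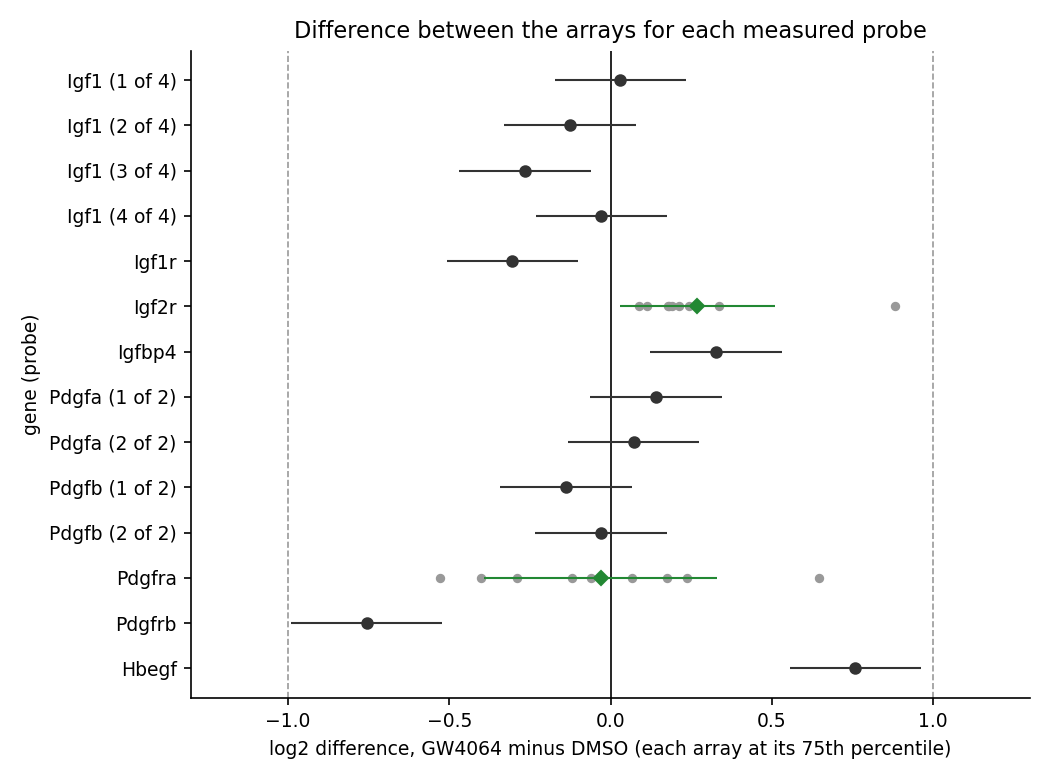
Log2 difference (GW4064 minus DMSO, scaled to the 75th percentile) of each measured probe, grouped by gene. Bars are the software's error of the difference for probes with 1 spot (black points), green diamonds with bars are the mean and SD over copies paired by position for Igf2r and Pdgfra, small grey points are those copies, and dashed lines mark 2-fold. Hbegf at 0.76 and Pdgfrb at -0.76 are the only probes beyond 1.5-fold, and the 4 probes of Igf1 lie between -0.26 and 0.03.

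Igf1r (NM_010513), the signalling receptor of IGF1, had 1 probe with signals of 780 with DMSO and 661 with GW4064. The difference was -0.30 with a software error of 0.20, 1.23-fold lower. Of 4319 probes of like signal, 5.81% were at least as far below 0. The median SD between copies of 54 probes of like signal was 0.07, and no other spot near it was 8-fold or more apart. The related insulin receptor gene Insr, which has 3 probes, gave differences from -0.27 to -0.04 with a mean of -0.19, a signal of 412 with DMSO and 364 with GW4064 for its brightest probe.

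Igf2r (NM_010515) had 1 probe printed 10 times on each array. Its mean signal was 9396 ± 1218 (SD, n = 10 copies) with DMSO and 11706 ± 234 (SD, n = 9 copies, 1 copy marked as an outlier by the software) with GW4064. The copies ranged from 6092 to 10229 with DMSO and from 11288 to 12155 with GW4064, before scaling. How often the copies of other repeated probes lie apart was not counted. The gene's difference was 0.26, 1.20-fold higher. Paired by position, the 9 usable copies gave a mean of 0.27 ± 0.24 (SD, n = 9 copies), with a median of 0.19, and all 9 were higher. The largest, at 0.88, came from the copy with a DMSO signal of 6092, which lay in an area of clustered large differences. Over the 6 copies outside such areas the mean was 0.21 ± 0.08 (SD). The copies are spots of 1 RNA sample per array, and among 3064 probes of like signal 6.63% were at least as far above 0.

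Igfbp4 (NM_010517), the gene of the IGF-binding protein, had 1 probe with signals of 325 with DMSO and 427 with GW4064, a difference of 0.33 with a software error of 0.21. The value corresponds to 1.25-fold higher, and 6.40% of 4174 probes of like signal were at least as far above 0. This spot lay in an area of clustered large differences, with 2 other spots 8-fold or more apart within 300 µm, so no value was left for Igfbp4 once those areas were left out.

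Pdgfra (NM_011058), the receptor of all the PDGF-A and PDGF-B dimers, had 1 probe printed 10 times and a dim signal. Its mean was 31.0 ± 5.14 (SD, n = 9 copies) with DMSO and 34.6 ± 10.2 (SD, n = 10 copies) with GW4064. One DMSO copy, at 178, was marked as an outlier by the software and left out. The GW4064 copy at the same position, at 60.8, was kept and entered the gene's difference. This position lay in an area of clustered large differences. Over the 8 paired copies outside such areas the mean was -0.03 ± 0.39 (SD). The gene's difference was 0.07, while the 9 usable copies paired by position gave a mean of -0.03 ± 0.36 (SD), with 4 higher and 5 lower. The copies of the arrays overlapped, at 20.2 to 36.9 with DMSO and 25.1 to 60.8 with GW4064. No difference in Pdgfra mRNA expression was detectable above the spread of its copies.

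Pdgfrb (NM_001146268), the receptor of PDGF-BB and a marker of fibroblasts and pericytes, had 1 probe. Its signal was 85.2 (software error 9.30) with DMSO and 52.8 (software error 6.33) with GW4064. The difference was -0.76 with a software error of 0.23, 1.69-fold lower, the largest downward difference among the members. Of 4128 probes of like signal, 6.08% were at least as far below 0. Over all probes measured on at least 1 array, a wider set, 4.15% were. The median SD between copies of 33 probes of like signal was 0.18. The median pixel was 116 with DMSO and 87.5 with GW4064, against local backgrounds of 13 and 14. With normexp, which was computed from the median pixels, the difference was -0.36. That correction also adds 50 to each intensity, which draws the difference of a dim probe such as this one toward 0. The 95 spots around the probe had a median difference of -0.07, and 1 other spot within 300 µm was 8-fold or more apart.

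**Figure D3:**
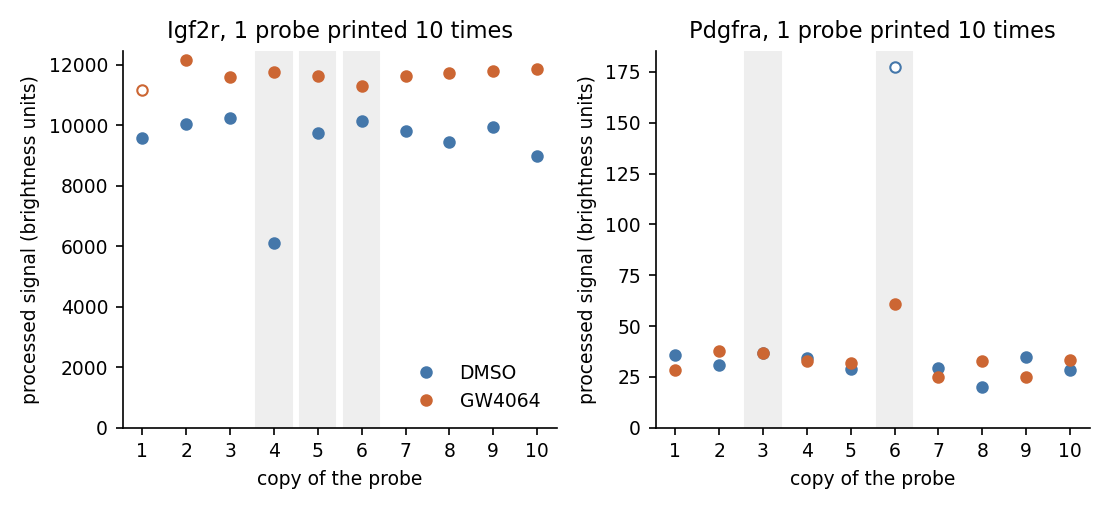
Processed signal (brightness units) of the 10 copies of the Igf2r probe (left) and of the Pdgfra probe (right) on the DMSO and GW4064 arrays. Open circles were marked as outliers by the software and left out, and grey bands are copies in areas of clustered large differences. All usable Igf2r copies are higher with GW4064, with the lowest DMSO copy at 6092 in a grey band, and the Pdgfra copies overlap apart from the open circle at 178.

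The IGF system as a whole was read from a list of 23 genes that holds Igf1, Igf1r, Igf2r and Igfbp4 beside other binding proteins, proteases and receptor substrates. Of the 23 genes 15 were measured, 6 higher and 9 lower, with a median difference of -0.19 beside 0.01 over all genes. Without the 4 genes described above, 11 were measured, 4 higher and 7 lower, with a median of -0.26. Past 1.5-fold there was 1 higher gene and there were 3 lower genes. Of all measured genes, 4.39% were past it upward and 5.56% downward. Igfbp5, which encodes an IGF-binding protein that also attaches to extracellular matrix, had a signal of 216 with DMSO and 110 with GW4064, a difference of -1.03, 2.05-fold lower. Igfbp3, which encodes the main carrier of IGFs in serum, was dim with DMSO, at 11.5 and not well above background, and reached 25.1 with GW4064, which makes it at least 1.52-fold higher. The protease gene Pappa had 23.5 with DMSO and 9.42 with GW4064, where it was not well above background, at least 1.63-fold lower. Its relative Pappa2 had 1 of 2 probes measured, at 55.6 with DMSO and 3.73, not well above background, with GW4064, at least 3.84-fold lower. Apart from Igfbp5, each of these genes rests on a measured signal on 1 of the arrays only. The other ligand, Igf2, was too dim on both arrays to be measured, with signals of 3.72 and 7.72.

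The list of 14 genes of the PDGF system had 12 measured, 3 higher and 9 lower, with a median difference of -0.11. Without Pdgfa, Pdgfb, Pdgfra and Pdgfrb, 8 were measured, 1 higher and 7 lower, with a median of -0.18. Past 1.5-fold there were 2 lower genes, Pdgfrb and Pdgfc, beside 5.56% of all measured genes. None was higher, beside 4.39%. Pdgfc, which encodes a chain that acts on PDGFRA after proteolysis, had a signal of 283 with DMSO and 145 with GW4064, a difference of -1.04, 2.05-fold lower. Pdgfd, the gene of a further chain, and Pdgfrl, a receptor-like gene, were too dim on both arrays to be measured.

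The list of 23 genes of the EGF system had 14 measured, 7 higher and 7 lower, with a median difference of -0.01. Without Hbegf and Areg, 13 were measured, 6 higher and 7 lower, with a median of -0.14. Past 1.5-fold there were 3 higher genes, Hbegf, Adam10 and Epgn, beside 4.39% of all measured genes. None was lower, beside 5.56%. Adam10, a protease that sheds several EGF-type precursors, had a signal of 7635 with DMSO and 12010 with GW4064, a difference of 0.59 that lies just past the threshold. Epgn, the gene of epigen, was read on 1 spot, at 6.26 with DMSO, which was not well above background, and at 77.4 with GW4064. This makes it at least 4.70-fold higher, for a spot in an area of clustered large differences. The other ligands measured were Egf, at 32.4 with DMSO and 37.5 with GW4064 (difference 0.15), Nrg1, at 39.2 and 32.2 (difference -0.35), and Nrg4, with a mean of 0.28 over its 2 probes. Tgfa, Ereg, Btc, Nrg2 and Nrg3 were too dim on both arrays to be measured.

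Egfr, the receptor of HB-EGF and amphiregulin, had 2 probes with differences of -0.46 and -0.56. The second was printed 10 times, with mean signals of 151 with DMSO and 107 with GW4064, and the 8 usable copies paired by position gave -0.54 ± 0.13 (SD). Every usable copy was lower with GW4064, from -0.71 to -0.34, but the copies are spots of 1 RNA sample per array. The mean over the 2 probes was -0.51, short of 1.5-fold. Erbb2, Erbb3 and Erbb4, the other receptors of this family, were too dim on both arrays to be measured.

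The macrophage label and the stroma were checked with marker genes. Of 11 macrophage markers, 10 had a matched probe and all 10 were measured on the arrays, 5 higher and 5 lower, with a median of 0.02 and none 1.5-fold or more apart. The brightest were Tyrobp (difference -0.01), Csf1r (-0.24), the M-CSF receptor gene, and Adgre1 (-0.25), the gene of F4/80. Of 20 stromal markers, 19 were measured and 18 of these were lower with GW4064, with a median of -0.99. Of these, 9 were 2-fold or more lower, beside 2.71% of all measured genes. Sparc, the brightest, had a signal of 22294 with DMSO and 12535 with GW4064 for its brighter probe and a mean difference of -0.80. Col1a2, a collagen gene, had 10058 and 5296, a difference of -0.99. The genes 2-fold or more lower were Grem1 (-2.05), Lox (-1.60), Col6a1 (-1.25), Col5a1 (-1.21), Bgn (-1.13), Postn (-1.11), Fbn1 (-1.07), Acta2 (-1.05) and Tagln (-1.02). Only Kitl was higher, by 0.30, and Lum was too dim on both arrays to be measured. The summed signal of 21 stromal probes over the 75th percentile was 41.5 with DMSO and 21.9 with GW4064. This sum is weighted toward bright probes such as those of Sparc and Col1a2. The same sum over 15 macrophage probes was 487 with DMSO and 456 with GW4064. Genes of the growth factor lists went both ways: 6 of 15 measured IGF genes, 3 of 12 PDGF genes and 7 of 14 EGF genes were higher. Pdgfrb, Pdgfc, Igfbp5, Pappa and Egfr were among the lower ones, and Hbegf, Adam10, Igfbp3 and Igfbp4 among the higher ones. Granulocyte markers were mostly lower too, with a median of -0.74. Pdgfra, a further stromal receptor, had no detectable difference, but its signal was dim, at 31.0 with DMSO and 34.6 with GW4064. Its copies paired by position had an SD of 0.36. The part of stromal or other cells in the differences of this paragraph was not tested.

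**Figure D4:**
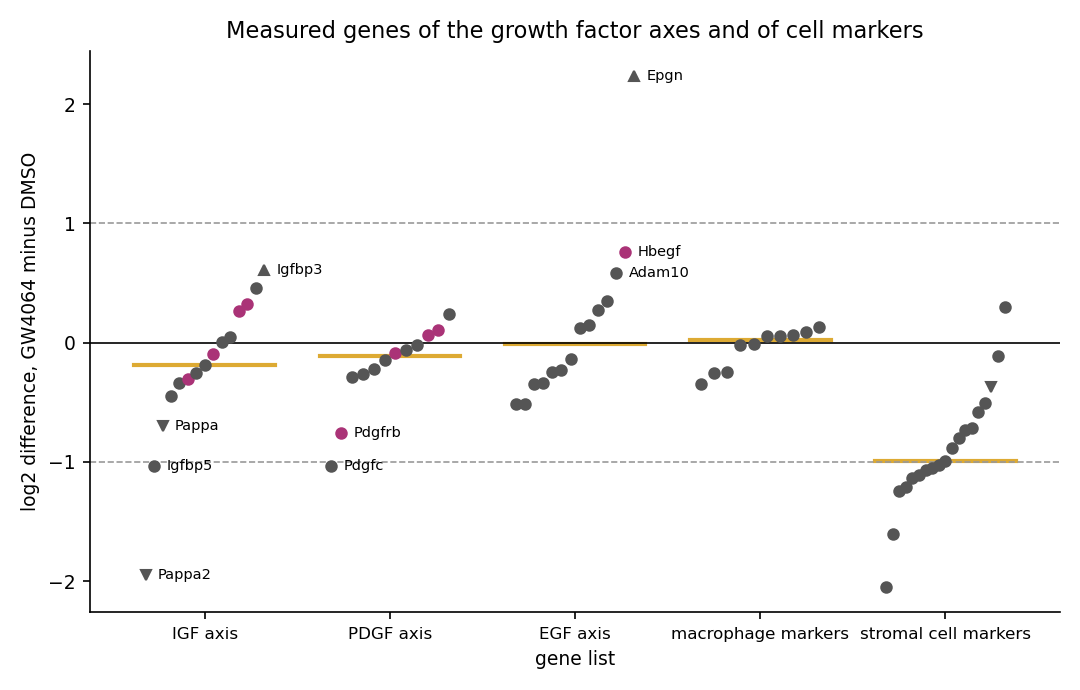
Log2 difference (GW4064 minus DMSO) of each measured gene in the IGF, PDGF and EGF lists and the macrophage and stromal marker lists, in order of value within a list. Purple points are the 9 measured genes of the 10 named at the opening, triangles are lower bounds on the size of a difference for genes not well above background on 1 array, yellow bars are list medians and dashed lines mark 2-fold. The stromal median lies at -0.99 and the macrophage median at 0.02.

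Scaling moved the smaller differences. When the arrays were centred on 8 spike-in RNAs, each difference was lower by 0.19, and Pdgfa then stood at -0.08 and Pdgfra at -0.12. Pdgfra was also below 0 when marked spots were kept (-0.19), with normexp (-0.06) and outside areas of clustered large differences (-0.03). Hbegf lay between 0.57 and 0.76 and Pdgfrb between -0.94 and -0.36 over 11 alternatives. Igf1, Igf1r and Pdgfb were below 0 and Igf2r, Igfbp4 and Hbegf above 0 under each alternative that gave a value.

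**Figure D5:**
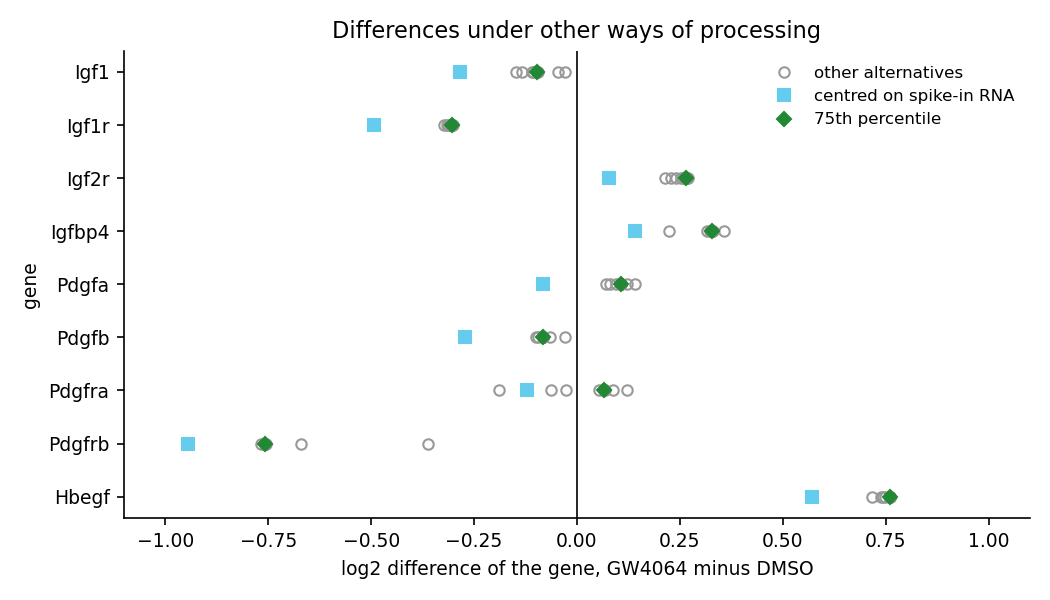
Log2 difference (GW4064 minus DMSO) of each measured gene under the 75th percentile scaling (diamonds), after centring on the spike-in RNAs (squares) and under the other alternatives (open circles). Pdgfa and Pdgfra have points on both sides of 0, whereas Hbegf stays above 0 and Pdgfrb below 0.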

How the data were processed

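The authors deposited the scanner output of both arrays, in which each intensity had been background-subtracted and detrended within the array by Agilent Feature Extraction 10.7.1.1 (submitters' processing notes), with no scaling between arrays. A deposited log2 table was used as an alternative: for 39200 probes the difference of its columns was within 0.001 of that computed here, apart from a constant of 0.0022. The medians of its columns were 0.03 and -0.05, and the baseline on which its probes were centred is not given in the sources used here. The normalization and filter used by the authors are likewise not given. Both arrays shared 1 slide and 1 scan.

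Here log2 processed signal minus the 75th percentile over non-control spots was taken per array. Spots marked as outliers were left out, copies averaged, and a gene took the average of those probes that stood well above background on 1 or both arrays. For a probe dim on 1 array, its own signal or the lowest signal well above background, whichever was higher, stood in, so its fold is a bound. Probes were named through refseq_genes of assembly GRCm38.p6, by which 26445 of 39429 probes matched a symbol. No coordinates are printed, since the array design names another build. The 9 gene lists and the members were chosen with earlier results of these data known. Named were every member, the other ligands and receptors of the 3 growth factor lists, other genes of these lists 1.5-fold or more apart, the 3 brightest genes of each marker list, and stromal genes 2-fold or more apart. Alternatives were quantile, median, loess (span 0.3) and spike-in scaling, the deposited table, normexp (offset 50, on median intensity because the files hold no mean), marked spots kept, other filters on dim probes, the brightest probe, areas of clustered large differences left out, and thresholds of 1.5-fold and 4-fold. Python 3.11.15, numpy 2.4.6, pandas 2.3.3, statsmodels 0.14.6, R 4.3.3 and limma 3.58.1 were used, and the calculations were tested on simulated data.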

Additional observations from a re-analysis of the deposited data

How the results depend on the processing

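No paired analysis was possible because the replicate number names a single array per group. Of the 9 measured genes, 5 were higher, and 3 were higher with spike-in centring. Without areas of clustered large differences 3 were higher and 5 lower, and Igfbp4 had no value. At 1.5-fold 2 of the 9 genes were past the threshold, against 0 at 2-fold. Of the 2, 1 was higher, beside 4.39% of all measured genes, and 1 lower, beside 5.56%. Over all probes, 510 were 2-fold or more higher and 659 lower. With the deposited table, which has no bound for dim probes, the counts were 921 higher and 895 lower. With no filter the counts were 1637 higher and 1664 lower, with only probes well above background on both arrays 178 and 278, with normexp 112 and 120, and without areas of clustered large differences 277 and 338. At 1.5-fold they were 1117 and 1317, and at 4-fold 118 and 156. Of probes 2-fold or more apart, 43.6% were higher, against 29.7% with spike-in centring and 50.7% with the deposited table. The stromal median ranged from -1.18 to -0.82, and that of the EGF list, -0.01, ranged from -0.20 with spike-in centring to 0.02 with quantile scaling. Signal over background limits Areg, Pdgfra and Pdgfrb, and 1 array per condition limits every difference.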

Other observations

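Marker lists of other cells were read on the same arrays. Of 11 genes raised by IL-4 in macrophages, 7 were higher and 4 lower with GW4064, with a median of 0.21. The median was 0.02 with spike-in centring and 0.40 without areas of clustered large differences. Of the 11 genes, 5 were 1.5-fold or more higher, beside 4.39% of all measured genes. Arg1, the gene of arginase 1, was the 1 gene of this list 2-fold or more higher, with a signal of 4875 with DMSO and 72297 with GW4064, a difference of 3.82. The brightest with DMSO were Chil3 (difference 0.07), Mrc1 (-0.34) and Retnla (0.91), and with GW4064 Chil3, Arg1 and Retnla. Of 12 granulocyte markers 7 were measured and 6 of these were lower, with a median of -0.74. S100a9, a calprotectin subunit gene of neutrophils, had a signal of 8136 with DMSO and 4614 with GW4064, a difference of -0.88, S100a8 differed by -0.45 and Siglecf by 0.10. Of 8 endothelial and mural markers 6 were measured and all 6 of these were lower, with a median of -0.32, and the brightest with DMSO were Vwf (-0.13), Kdr (-0.03) and Cspg4 (-1.05). The spot of Cspg4 lay in an area of clustered large differences, and without such areas the median was -0.17. Of 8 lymphocyte markers 4 were measured, 2 higher and 2 lower, with a median of -0.09, and the brightest were Il7r (-0.22), Cd3e (0.18) and Gata3 (0.03).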
